A study of Mus musculus with 12 samples.

Results

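The regions described here are stretches of the genome where acetylation of histone H3 at lysine 27 (H3K27ac) was called as a peak in both Phf6 Tg libraries and in neither wild type (WT) library. They were found by merging the overlapping peaks of the 4 H3K27ac lists into 48376 regions and keeping those with a peak in both Tg libraries and no peak in either WT library. The rule kept 939 regions, or 1.94% of all merged regions, and these are called Tg-only regions below. The mirror class with a peak in both WT libraries and in neither Tg library, called WT-only, held 2371 regions, and 19612 regions had a peak in all 4 libraries.

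The mice were C57BL/6. Tg mice carried the Phf6 R274X transgene and WT mice were wild type, with 2 libraries for each genotype and each mark, which the series' design text ties to 2 mice for each genotype. All libraries were made from cKit+ bone marrow cells sorted by flow cytometry, and their age, sex and the promoter that drives the transgene are not given in the sources used here. Chromatin immunoprecipitation followed by sequencing was run for H3K27ac, for monomethylation of histone H3 at lysine 4 (H3K4me1) and for trimethylation of the same residue (H3K4me3), 12 libraries in all.

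H3K27ac is laid down at promoters and enhancers that are in use. H3K4me1 covers enhancers, including those that lack H3K27ac and are called primed, and H3K4me3 covers promoters. Phf6 is an X-linked gene for a chromatin-binding protein with PHD-type zinc fingers, and truncating changes in it recur in acute leukaemia. cKit is the receptor for stem cell factor, and the cells that display it in marrow are mostly haematopoietic stem and progenitor cells, in which genes such as Hoxa9, Meis1 and Mecom are active and are shut down on maturation.

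The H3K27ac lists held 33179 and 38839 peaks in Tg libraries, against 42124 and 31257 in WT libraries, and covered 28.5 and 33.8 Mb in Tg against 45.7 and 36.6 Mb in WT. The H3K4me1 lists covered 70.7 and 117.0 Mb in Tg, against 66.3 and 119.7 Mb in WT. The H3K4me3 lists covered 40.9 and 40.0 Mb in libraries labelled Tg, against 43.6 and 38.3 Mb in those labelled WT. Lengths in bp given below for single regions are not scaled to list size, and its part in them was not tested. Read depth is unknown because the lists hold no counts. Peaks of H3K27ac covered 3.11 and 1.65 kb of Kit in Tg libraries, against 4.76 and 2.36 kb in WT libraries. Of the markers of progenitor cells, 6 of 8 had an H3K27ac peak in all 4 libraries, and Cd34 had none. Their summed covered length was 57.1 and 65.7 kb in Tg libraries, against 73.0 and 62.7 kb in WT libraries. The 5 mature granulocyte markers also had a peak in all 4 libraries, and their summed covered length was 14.1 and 14.7 kb in Tg libraries, against 26.0 and 26.5 kb in WT libraries. Erythroid markers summed to 1.78 and 3.67 kb in Tg and 6.11 and 4.64 kb in WT, with Gata1 at none. Markers of B cells summed to 0.684 and 1.06 kb in Tg and 1.84 and 1.54 kb in WT. T cell markers summed to 1.77 and 1.34 kb in Tg and 0.822 and 1.14 kb in WT, with no peak at Cd3e. Markers of stroma and endothelium summed to 8.77 and 10.4 kb in Tg and 16.4 and 14.4 kb in WT. The part of such marker differences in the Tg-only regions was not tested, and in bulk chromatin more cells of a type and more signal in each cell cannot be told apart.

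In the H3K4me3 lists, all 4, the peaks are named after the other genotype than the one on the label. In the other 8 lists name and label match. Every direction given for H3K4me3 is therefore by label. Within Phf6 itself, H3K4me3 peaks covered 1.86 and 1.97 kb in the libraries labelled Tg, against 3.89 and 3.14 kb in those labelled WT, and H3K4me1 peaks covered 0.387 and 2.59 kb in Tg, against 0 and 0.318 kb in WT. H3K27ac over Phf6 covered 1.62 and 1.65 kb in Tg and 1.81 and 1.70 kb in WT. No Tg-only region lay in Phf6 or in Kit.

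Tg-only regions overlapped the promoter window of 41 of 17492 genes with a RefSeq window, which runs from 250 bases before to 50 bases after the annotated start. Promoters of 4 genes that recur in the results are printed on their own strand from RefSeq (GRCm38.p6). Trim47 had the strongest Tg-only region at a start, Meis1 a region far from any WT peak, and F13a1 and Igll1 belong to the monocyte and B-lymphoid lists. Capitals mark the motifs that were searched for, on either strand: CAGCTG (E-box), TGTGGT (RUNX) and GGAAGT (ETS).
Trim47, chr11:116110186-116110485, minus strand: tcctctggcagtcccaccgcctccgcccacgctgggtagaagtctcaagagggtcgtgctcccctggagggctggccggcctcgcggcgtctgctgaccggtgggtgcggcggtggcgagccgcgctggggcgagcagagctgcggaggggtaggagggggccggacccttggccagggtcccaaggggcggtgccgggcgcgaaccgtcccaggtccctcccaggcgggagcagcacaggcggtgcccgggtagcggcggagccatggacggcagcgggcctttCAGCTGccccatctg
Meis1, chr11:19018920-19019219, minus strand: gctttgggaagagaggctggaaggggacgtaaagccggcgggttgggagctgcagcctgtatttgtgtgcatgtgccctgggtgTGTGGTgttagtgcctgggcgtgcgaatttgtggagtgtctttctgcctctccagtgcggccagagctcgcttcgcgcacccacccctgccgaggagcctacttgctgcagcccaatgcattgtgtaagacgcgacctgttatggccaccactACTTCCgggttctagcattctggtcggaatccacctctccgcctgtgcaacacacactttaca
F13a1, chr13:37049164-37049463, minus strand: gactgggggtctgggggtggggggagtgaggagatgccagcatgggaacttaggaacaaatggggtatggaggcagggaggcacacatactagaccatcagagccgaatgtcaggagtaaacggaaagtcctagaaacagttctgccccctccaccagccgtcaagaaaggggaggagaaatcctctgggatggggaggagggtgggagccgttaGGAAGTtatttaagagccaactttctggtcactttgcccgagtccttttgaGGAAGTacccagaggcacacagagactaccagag
Igll1, chr16:16863936-16864235, minus strand: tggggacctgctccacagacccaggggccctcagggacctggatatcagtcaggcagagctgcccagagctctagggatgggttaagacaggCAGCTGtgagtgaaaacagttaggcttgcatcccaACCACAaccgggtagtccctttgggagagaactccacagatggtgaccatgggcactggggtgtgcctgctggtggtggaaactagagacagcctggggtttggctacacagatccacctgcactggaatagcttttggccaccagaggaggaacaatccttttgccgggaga
A RUNX or ETS match on the opposite strand reads as its reverse complement. The Trim47 window held 1 E-box, after the start. Meis1 held 1 ETS and 1 RUNX match, F13a1 held 2 ETS matches, and Igll1 held 1 RUNX match and 1 E-box.

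The hairpins of 4 microRNAs lay within 1 kb of a Tg-only region. miR-196b, which sits between Hoxa9 and Hoxa10 and is a repressor of Hox messenger RNAs, had its hairpin 452 bp from the region at chr6:52228678-52229628. The mature form from its upstream arm is shown because it lies beside the Hoxa run described below, with the seed (bases 2 to 8) in capitals.
mmu-miR-196b-5p: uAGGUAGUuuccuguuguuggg
The hairpins of miR-6546, inside the Tg-only region of Fcgr3, and of miR-686 overlapped a region, and that of miR-301b lay 837 bp away. Their mature forms shared no seed with miR-196b-5p.

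The regions were chosen by the presence of H3K27ac peaks in the 4 H3K27ac libraries, so their H3K27ac values are a description and carry no test. Peak strength is given as the percentile of a peak's −log10 q-value within its own list, a measure the authors' caller supplied. Tg-only regions came from the weaker end of each list. Their median percentile was 26.2 in Tg replicate 1 and 28.9 in Tg replicate 2, and the smaller of the 2 percentiles, used below as the strength of a region, had a median of 17.3 and a maximum of 63.2. Only 34 of the 939 regions had a strength over 50. The authors' fold enrichment at these peaks had a median of 4.40 in Tg replicate 1 and 4.36 in Tg replicate 2.

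Regions on either side of the limit overlapped in strength. A peak in both Tg libraries was found at 22161 regions, of which 1610 had a peak in 1 WT library as well, 1283 of them in WT replicate 1 and 327 in WT replicate 2. Among the Tg-only regions, the weaker Tg peak had a median −log10 q of 4.31, and 31 were under 2. The member closest to the limit lay in Cacna1e, a calcium channel gene (chr1:154847843-154848487), with −log10 q of 1.37 and 3.05 in the Tg libraries. Just outside was a region 10167 bp from Trim43a (chr9:88598991-88599585), with 5.55 and 6.30 in the Tg libraries and 1.43 in its single WT peak. A further 2073 regions without a WT peak had a peak in Tg replicate 1 alone, and 4040 in Tg replicate 2 alone.

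Tg-only regions were narrow. Their median width was 493 bp (middle 50% of regions from 391.5 to 660 bp, all from 259 to 2678 bp), and they summed to 0.530 Mb. WT-only regions had a median of 637 bp, and regions in all 4 libraries 1697 bp.

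**Figure D1:**
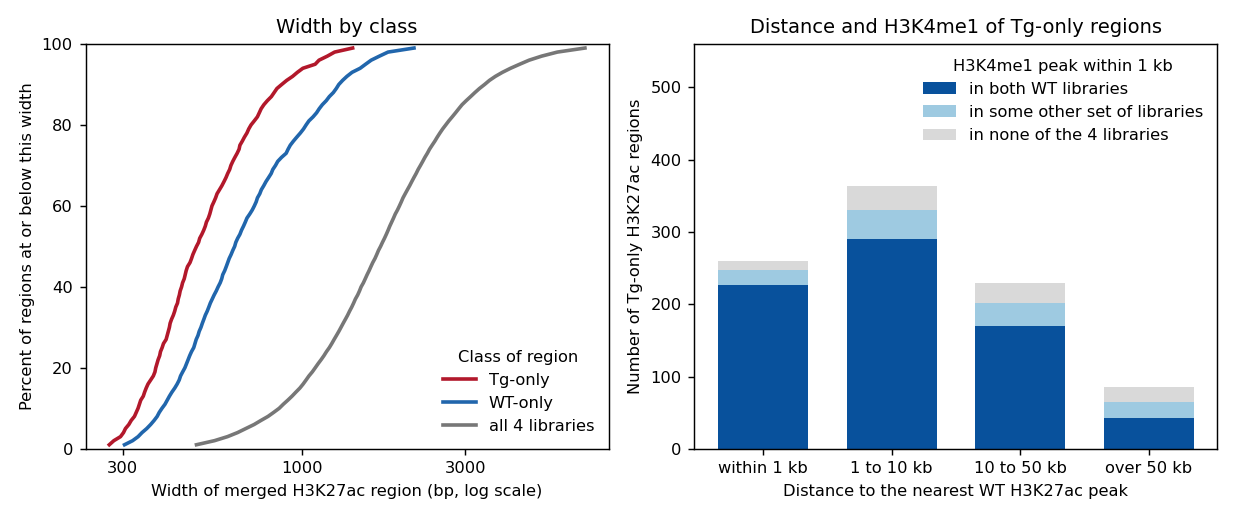
Left, share of merged H3K27ac regions at or below each width (bp, log scale) for Tg-only, WT-only and all-library regions, drawn from the 1st to the 99th percentile; the curve of Tg-only regions lies farthest left, with a median of 493 bp. Right, number of Tg-only regions by distance to the nearest WT H3K27ac peak, split by H3K4me1; 260 regions lay within 1 kb of a WT peak and 86 lay over 50 kb away.

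Most Tg-only regions lay away from gene starts. An end is here either boundary of a gene, and a start is the annotated start of its promoter window. Protein-coding genes had an end or an annotated start within 1 kb of 118 regions (12.6%), 421 (44.8%) lay inside genes farther from those points, and 400 (42.6%) lay outside genes. The share near gene ends or starts was 9.49% of WT-only regions and 48.0% of regions in all 4 libraries. Only 63 Tg-only regions (6.71%) were within 1 kb of a start, against 4.55% of WT-only and 37.7% of all-library regions. A gene lay within 10 kb of 71.8% of Tg-only regions, and 105 regions (11.2%) lay over 50 kb from every protein-coding gene.

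Many Tg-only regions sat beside acetylation that WT cells had too. The median distance to the nearest WT H3K27ac peak was 4.47 kb. A WT peak lay within 1 kb of 260 regions (27.7%), at 1 to 10 kb of 364 (38.8%), at 10 to 50 kb of 229 (24.4%) and over 50 kb from 86 (9.16%). The plot of distances shows these 4 groups. Of WT-only regions, 29.9% lay within 1 kb of a Tg peak and 10.1% over 50 kb away.

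H3K4me1 was present in both genotypes at most Tg-only regions. A peak within 1 kb was found in all 4 H3K4me1 libraries at 700 regions (74.5%; 95% Wilson interval 71.7 to 77.2), which covers counting error only. Both WT libraries had one at 729 regions (77.6%), and none of the 4 libraries had one at 94 regions (10.01%). H3K4me1 that followed the H3K27ac pattern was rare: 4 regions had it in both Tg libraries and neither WT library, and 4 had it the other way round. Among WT-only regions, 70.7% had H3K4me1 in all 4 libraries and 9.87% in none. Among all-library regions the shares were 89.7% and 1.75%.

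Per library, 83.5% and 88.2% of Tg-only regions had H3K4me1 in the Tg libraries, against 78.2% and 87.4% in the WT libraries. Replicate 1 was lower than replicate 2 in both genotypes, and the Tg and WT libraries overlapped. The means were 85.8% ± 3.31 in Tg and 82.8% ± 6.55 in WT (SD, n = 2 each), a difference of 3.04 percentage points (two-sided exact permutation test, p = 0.667, where the smallest p that 2 against 2 libraries can give is 0.3333). Without WT replicate 1 this difference was −1.60 percentage points. The share with H3K4me1 in both WT libraries was 86.9% within 1 kb of a WT H3K27ac peak, 79.7% at 1 to 10 kb, 74.2% at 10 to 50 kb, and beyond 50 kb 43 of 86 regions had it. Regions with no H3K4me1 in any library took the reverse order, with 4.62%, 9.34%, 11.8% and 24.4%.

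H3K4me3 was found in all 4 libraries within 1 kb of 309 Tg-only regions (32.9%; 95% Wilson interval 29.98 to 36.0) and in none within 1 kb of 397 (42.3%). Of WT-only regions 22.3% had it in all 4 libraries and 54.6% in none, and of all-library regions 77.6% and 9.47%. At the 63 Tg-only regions within 1 kb of a start the share with H3K4me3 in all 4 libraries was 85.7%, against 29.1% elsewhere. Taking the marks together, 282 regions (30.03%) had H3K4me1 in all 4 libraries and H3K4me3 in none, 222 (23.6%) had both marks in all 4, 32 (3.41%) had H3K4me3 in all 4 and H3K4me1 in none, and 42 (4.47%) had neither mark in any library. In the same order, the shares were 33.0%, 18.5%, 0.506% and 8.48% of WT-only regions. Of all-library regions they were 7.94%, 69.8%, 0.943% and 0.489%.

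Per library, H3K4me3 was present at 40.5% and 41.2% of Tg-only regions in the libraries labelled Tg, against 53.4% and 40.4% in those labelled WT. A single library stood apart, the library labelled WT replicate 1, which was also the largest H3K4me3 list (39584 peaks, 43.6 Mb). The means were 40.8% ± 0.527 in the libraries labelled Tg and 46.9% ± 9.19 in those labelled WT (SD, n = 2 each), a difference of −6.02 percentage points (two-sided exact permutation test, p = 1). The same-numbered differences were −12.9 points in replicate 1 and 0.852 in replicate 2, and without WT replicate 1 the difference was 0.479. Read by the genotype in the peak names, the same difference is 6.02 percentage points, with the sign reversed.

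The replicate 1 pair also split WT-only regions, in the opposite direction. At Tg-only regions, 24 had H3K4me3 in the replicate 1 library labelled Tg alone and 145 in that labelled WT alone. At WT-only regions, 250 had it in the one labelled Tg alone and 94 in the one labelled WT alone. In this pair the library with more H3K4me3 at Tg-only regions has Tg in its peak names, and the library with more at WT-only regions has WT in its peak names. The replicate 2 pair showed no such split, with 53 and 45 at Tg-only regions and 127 and 127 at WT-only regions. Whether the labels or the peak names are right was not tested. In the first 10 Mb of chromosome Y, the replicate 1 H3K4me3 libraries had 7 peaks (labelled Tg) and 8 peaks (labelled WT) and both replicate 2 libraries had 0, while the H3K27ac libraries had 3 and 2 in Tg and 3 and 2 in WT. The part of this difference between replicates in the replicate 1 split was not tested.

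**Figure D2:**
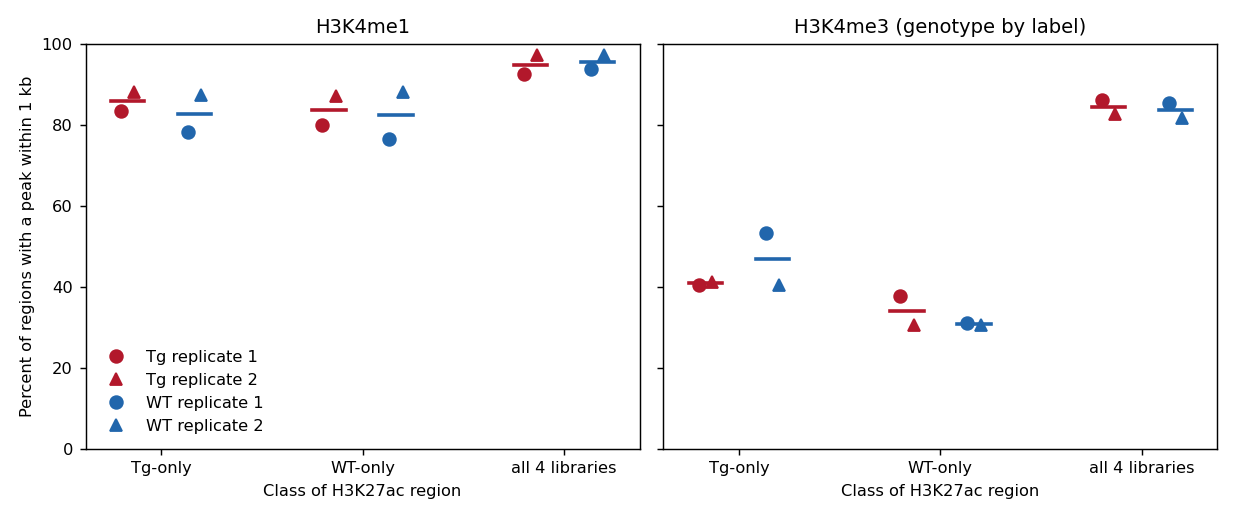
Percent of Tg-only, WT-only and all-library H3K27ac regions with an H3K4me1 (left) or H3K4me3 (right) peak within 1 kb in each library; points are libraries, bars the mean of 2 libraries, and H3K4me3 genotypes are by label. At Tg-only regions 3 H3K4me3 libraries lie between 40.4% and 41.2% and the library labelled WT replicate 1 lies at 53.4%.

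The length covered by each methylation mark was also compared between genotypes with limma, on log2(bp + 500) over the region and 1 kb on each side, across all merged H3K27ac regions with the mark in at least 2 libraries. For H3K4me1, 0 of 44393 regions passed a Benjamini-Hochberg adjusted p of 0.05 in limma (0% called), and 0 of the 826 Tg-only regions tested did. At an unadjusted p under 0.05, 62 Tg-only regions passed, 43 of them higher in Tg and 19 lower (7.51% of those tested, against 5.54% of all regions), where 2.72% of all regions were higher and 2.82% lower. The higher and lower shares among the Tg-only regions tested were 5.21% and 2.30%. The median log2 change was 0.07 at Tg-only regions and 0.00 over all regions tested. These counts rest on single libraries, and the median change was 0.16 without Tg replicate 2 and 0.09 without WT replicate 1. Without Tg replicate 1 there were 18 higher and 19 lower with a median of 0.00, without Tg replicate 2 53 and 22, without WT replicate 1 30 and 6, and without WT replicate 2 78 and 23 with a median of 0.02.

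For H3K4me3, limma called 0 of 28248 regions (0%) and 0 of the 432 Tg-only regions tested. At an unadjusted p under 0.05, 13 Tg-only regions were higher and 31 lower in the libraries labelled Tg, or 3.01% and 7.18%, together 10.2% against 6.49% of all regions, where 3.51% of all regions were higher and 2.98% lower. The median log2 change was −0.09 at Tg-only regions, −0.01 over all regions tested and 0.03 at WT-only regions. Of the Tg-only regions tested, 27.8% had a positive change, against 46.6% of all regions and 56.5% of WT-only regions. Here too single libraries set the counts. Without WT replicate 1 there were 18 higher and 10 lower, without Tg replicate 2 5 and 63, without Tg replicate 1 9 and 26, and without WT replicate 2 15 and 32. The median was −0.01 and the positive share 46.4% without Tg replicate 1. Without WT replicate 1 they were −0.09 and 28.7%, without Tg replicate 2 −0.16 and 26.1%, and without WT replicate 2 −0.10 and 31.0%. Read by the genotype in the peak names, every H3K4me3 direction in this comparison is reversed, with 31 higher and 13 lower in Tg.

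The 12 strongest Tg-only regions near a gene end or start included those of Trim47, Vps11, Nfic and Gdf15. The strongest covered the start of Trim47, a ubiquitin ligase of the tripartite motif family (chr11:116109862-116110612, 751 bp), with fold enrichments of 6.74 and 7.39 in the Tg libraries and the nearest WT peak 15566 bp away. H3K4me3 covered 1442 and 1939 bp around it in the libraries labelled Tg, against 1853 and 1595 bp in those labelled WT. The mark was thus present there in every library with overlapping lengths. H3K4me1 covered 1087 and 1456 bp in Tg, against 1489 and 1848 bp in WT, with both Tg libraries below both WT libraries.

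Vps11, a subunit of the complexes that tether vesicles to late endosomes, had a region of 1241 bp with fold enrichments of 8.39 and 5.43 (chr9:44348480-44349720). It had no H3K4me3 in any library, and H3K4me1 covered 757 and 1417 bp in Tg, against 0 and 674 bp in WT. Here both Tg libraries exceeded both WT libraries.

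At the start of Nfic, a nuclear factor I transcription factor, the region spanned 794 bp (chr10:81426398-81427191) with fold enrichments of 5.72 and 5.82, 2214 bp from a WT peak. A region of 627 bp lay at Gdf15, a stress-induced cytokine of the TGF-beta family (chr8:70631000-70631626), with 4.77 and 5.83. Regions at Tmem41a, at Ube2o, which encodes a ubiquitin-conjugating enzyme, and at Prickle1, a planar cell polarity gene, lay 61333, 33437 and 42770 bp from any WT peak, and all had H3K4me3 in all 4 libraries. At Ube2o H3K4me1 covered 660 and 519 bp in Tg, against 961 and 1345 bp in WT, with both Tg libraries below both WT libraries. Sema4a, which encodes a membrane semaphorin, had a region only 20 bp from a WT peak. The region at Gm7102 had H3K4me3 in all 4 libraries and no H3K4me1. Fcgr3, Igll1 and F13a1 complete the 12 and are described below.

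Among the strongest regions elsewhere, the leading one lay 25005 bp from Fut8, which encodes the enzyme of core fucosylation of N-glycans (chr12:77211282-77212425, 1144 bp, strength 63.2, fold enrichments 7.41 and 8.44). H3K4me1 covered 1983 and 2176 bp there in Tg, against 1797 and 2422 bp in WT, so the genotypes overlapped. Next came a region 3838 bp from Efna1, an ephrin ligand (chr3:89284789-89285910, fold enrichments 6.28 and 8.90), 14095 bp from a WT peak. Its H3K4me1 covered 1575 and 2028 bp in Tg, against 1337 and 1556 bp in WT, with both Tg libraries above both WT libraries.

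A region 5178 bp from Gm525 had H3K4me1 over 546 and 1580 bp in Tg, against 351 and 290 bp in WT. A region 6171 bp from Slc46a1, the proton-coupled folate transporter gene, had 858 and 951 bp in Tg, against 299 and 641 bp in WT. In both, the Tg libraries lay above the WT libraries, and neither was called by limma. The Trim47 and Ube2o regions above had the reverse order. The share of all merged regions without overlap between the genotypes was not counted. Of the 8 strongest regions elsewhere, 2 are the low-fold regions on chromosome 9 described below, with strengths of 60.6 and 59.8. A region in Csmd1, a large membrane protein gene, had fold enrichments of 10.1 and 8.33 and no H3K4me1 in any library.

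The widest Tg-only region on an autosome lay inside Ankrd55 (chr13:112343206-112345527, 2322 bp), with fold enrichments of 5.83 and 6.24 and no WT H3K27ac peak within 118137 bp. H3K4me1 covered 2516 and 2091 bp of it and its flanks in Tg, against 255 and 1627 bp in WT. Both Tg libraries lay above both WT libraries, while H3K4me3 was present in the library labelled WT replicate 1 alone, over 320 bp. The other regions among the 5 widest lay on chromosome Y (2678 bp), 303477 bp from Gadd45g (1971 bp), 23591 bp from Mid1 on chromosome X (1927 bp) and 9879 bp from Adck5 (1650 bp). Of these 4, the regions on chromosomes X and Y and the one nearest Adck5 had no H3K4me1 in any library.

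Tg-only regions were mostly scattered. Another Tg-only region lay within 100 kb of 320 regions (34.1%), against 49.4% of the more numerous WT-only regions, a difference that was not tested. The median distance to the next was 294 kb. The next merged region along the chromosome was also Tg-only for 64 regions (6.82%), where 1.94% of all merged regions were Tg-only. The same figures for WT-only regions were 8.01% and 4.90%. Runs of 3 or more regions with gaps of up to 100 kb numbered 36 and held 122 regions (12.99%), 99 pairs held a further 198 and 619 regions were alone. Across chromosomes, Tg-only regions made up 1.35% (chromosome 14) to 2.53% (chromosome 17) of merged regions on the autosomes.

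The Hoxa cluster, whose later genes drive self-renewal of progenitors and are raised in many acute leukaemias, held a run of 5 Tg-only regions. The 4 described here (chr6:52217589-52229628) lay at Hoxa7, inside Hoxa9, at the start of Hoxa9 and between Hoxa9 and Hoxa10.

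The strongest lay inside Hoxa9 (chr6:52225425-52226160), with H3K27ac peaks of 736 and 445 bp, fold enrichments of 7.05 and 6.92 and a WT peak 3449 bp away. H3K4me1 covered 1978 and 2604 bp in Tg, against 1684 and 2736 bp in WT. H3K4me3 covered 2296 and 2656 bp in the libraries labelled Tg, against 2717 and 2563 bp in those labelled WT. Both methylation marks were thus on the region in all libraries with overlapping lengths.

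At the start of Hoxa9 (chr6:52226377-52227057), H3K4me1 covered 2295 and 2681 bp in Tg, against 732 and 2209 bp in WT. At Hoxa7 (chr6:52217589-52218235) it covered 2334 and 2240 bp in Tg, against 753 and 2298 bp in WT. In the region towards Hoxa10, beside miR-196b, it covered 1426 and 1532 bp in Tg, against 0 and 1525 bp in WT. In all 3 the low value was WT replicate 1. Its H3K4me1 list covered the least, 66.3 Mb against 70.7 Mb in Tg replicate 1, and the part of list size in these values was not tested. These 4 regions had H3K4me3 in all 4 libraries, and at Hoxa7 it covered 1345 and 1721 bp in the libraries labelled Tg, against 1696 and 1460 bp in those labelled WT.

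**Figure D3:**
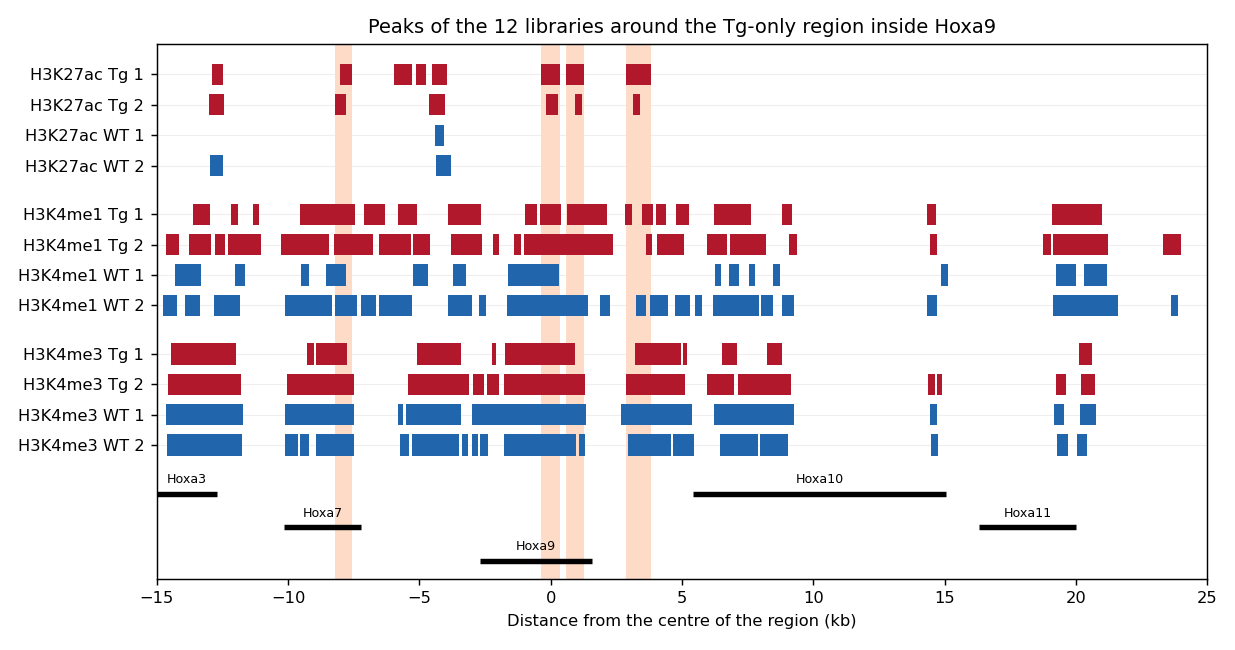
Peaks of the 12 libraries around the Tg-only region inside Hoxa9, by distance from its centre in kb, with genes below and 4 Tg-only regions shaded; Tg libraries are drawn above WT libraries for each mark and H3K4me3 is by label. H3K27ac peaks lie in the 4 shaded regions in Tg libraries alone, while H3K4me3 peaks lie there in all 4 libraries.

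The longest run held 6 Tg-only regions over 106 kb at the Fc gamma receptor genes (chr1:170974068-171080486), which encode receptors for immunoglobulin G and are similar enough in sequence that reads may be shared. The strongest lay inside Fcgr3, an activating receptor (chr1:171064342-171065242, 901 bp), with fold enrichments of 3.03 and 3.19. It was 673 bp from a boundary of the gene and 4939 bp from the annotated start. H3K4me1 covered 2482 and 2901 bp around it in Tg, against 2496 and 2901 bp in WT. H3K4me3 covered 2538 and 2494 bp in the libraries labelled Tg, against 2578 and 2567 bp in those labelled WT. Across the whole span H3K27ac covered 20.04 and 15.6 kb in Tg, against 20.6 and 20.4 kb in WT, so the run lay in a stretch with 10 regions acetylated in all 4 libraries.

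On chromosome 17, 5 regions lay outside genes, with Haao the nearest gene and at least 105276 bp away (chr17:83954257-83988479). There H3K27ac covered 5.78 and 5.49 kb in Tg, against 0.507 and 2.35 kb in WT. H3K27ac lengths over runs include the regions that the rule chose by H3K27ac, so they carry no test. Runs of 4 lay in Arid1b, which encodes a SWI/SNF chromatin remodelling subunit (chr17:5198055-5316985), and between Zdhhc14 and Snx9 and in Snx9 (chr17:5769374-5881317). Another lay in Runx2 and Supt3 (chr17:44677773-44789811), where H3K27ac covered 10.7 and 9.93 kb in Tg, against 13.3 and 9.09 kb in WT. Runx2 encodes a transcription factor of the same family as Runx1. The other runs of 4 lay between Ccnd2, the cyclin D2 gene, and Parp11 (chr6:127254278-127330704), and at Nfix, Nacc1 and Farsa (chr8:84681797-84861411). Between Ccnd2 and Parp11, H3K27ac covered 2.10 and 1.83 kb in Tg, against 0 and 0.560 kb in WT, and no region was acetylated in all 4 libraries.

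Shorter runs of 3 lay wholly in single genes, including Cdk6, a cyclin-dependent kinase of progenitors, Insr, the insulin receptor gene, Gse1, Itpr1, Wwox and Camkk2. In the gene or within 10 kb, Cdk6 and Itpr1 also had 2 WT-only regions each and Camkk2 had 1, while Insr, Gse1 and Wwox had 0. The H3K27ac lengths of the genotypes overlapped over the Cdk6 and Itpr1 runs. Over the runs of Insr, Gse1, Wwox and Camkk2 both Tg libraries were above both WT libraries. The rule favours this order, since it chose the regions of a run by H3K27ac peaks in Tg libraries alone. The genes of these shorter runs and of the densest stretch below were chosen after their values were seen. Of all genes, 19 had 3 or more Tg-only regions in them or within 10 kb, and Arid1b, Runx2 and Hoxa9 had 4 each. The densest 1 Mb stretch of the genome held 10 Tg-only regions and no WT-only region among 87 merged regions (chr13:37000001-38000000). Its regions lay near F13a1, Ly86, a partner of a Toll-like receptor homologue on B cells and macrophages, and Rreb1, a zinc finger transcription factor.

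A few Tg-only regions lay in sequence where peaks are of doubtful origin. A run of 5 at the start of the sequenced part of chromosome 9 (chr9:3010726-3030898) had fold enrichments of 1.56 to 1.96 and lay beside 13 regions acetylated in all 4 libraries. With 6 regions elsewhere, 11 members had a fold enrichment under 2.5 in both Tg libraries, and 8 of the 11 had no H3K4me1 in any library. On chromosome 2, 12 Tg-only regions and 1 WT-only region lay among 77 merged regions in a block of near-identical zinc finger genes, with the first starting at position 175264632 and the last at 177897210 of chromosome 2, where reads may be shared between copies and single genes are uncertain. Of those 12, 6 had H3K4me3 in all 4 libraries and 6 had neither methylation mark. Leaving out these 23 regions left 916, of which 79.6% had H3K4me1 in both WT libraries.

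Of 21887 protein-coding genes, 754 (3.44%) had a Tg-only region in them or within 10 kb, and 1600 (7.31%) had a WT-only region. Over 18 gene lists of blood lineages and signalling with 317 genes, 34 genes had a Tg-only region and 52 a WT-only region. Lists overlap, and neighbouring genes share regions.

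**Figure D4:**
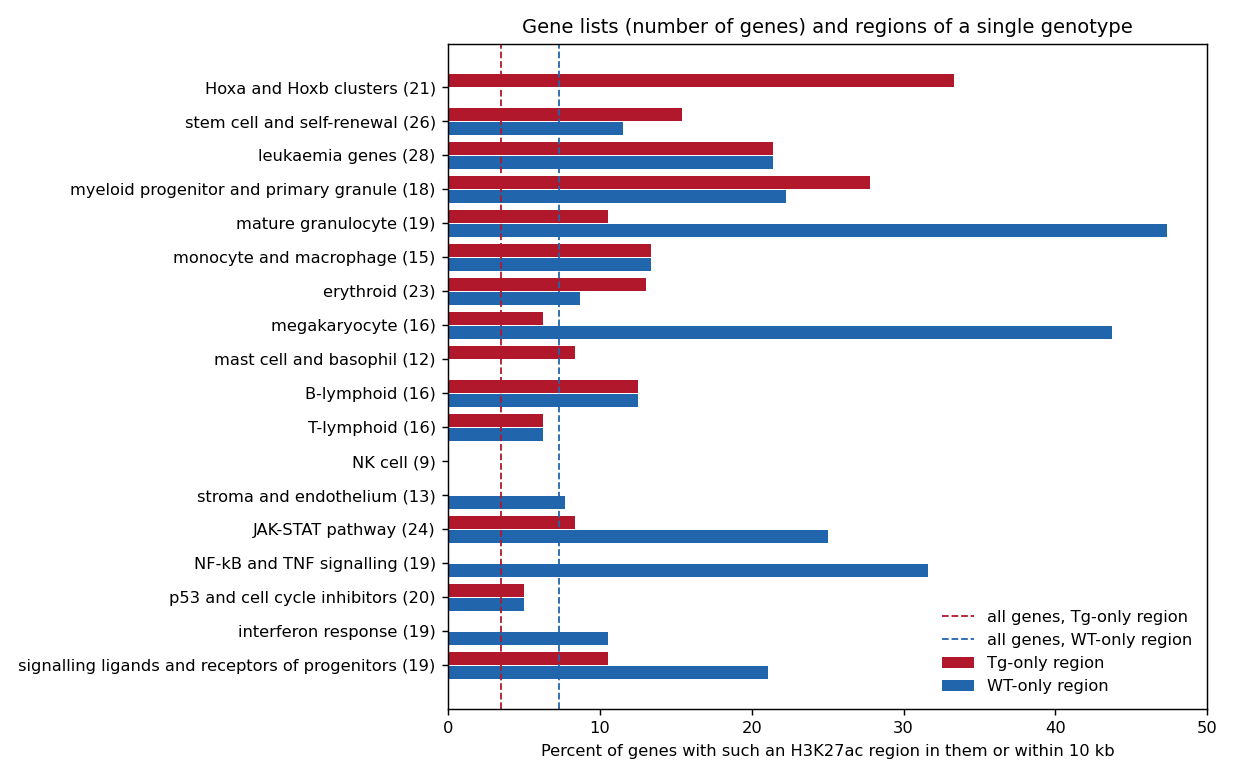
Percent of the genes of each list with a Tg-only or a WT-only H3K27ac region in them or within 10 kb; numbers of genes are in brackets and dashed lines mark 3.44% and 7.31%, the shares among all genes. Hoxa and Hoxb genes met Tg-only regions alone, while mature granulocyte, megakaryocyte and NF-kB genes met more WT-only regions.

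The counts below are set against 3.44% of all genes with a Tg-only and 7.31% with a WT-only region. Of the Hoxa and Hoxb genes, 7 of 21 had a Tg-only region and 0 a WT-only region. All 7 were Hoxa genes, reached by the same 5 regions. Of the stem cell and self-renewal genes, 4 of 26 had a Tg-only region (Meis1, Mecom, Tal1 and Runx1) and 3 a WT-only region. Runx1 met both classes. Of the leukaemia genes, 6 of 28 had each class, and Runx1 and Etv6 met both.

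Meis1 encodes a homeodomain partner of Hoxa9 in progenitors and leukaemia. It held 2 Tg-only regions, in and at the start of the gene. The region inside the gene (chr11:19014462-19014966) had H3K27ac peaks of 306 and 505 bp and fold enrichments of 4.68 and 6.35, and that over the start (chr11:19018379-19019036) had 466 and 559 bp and 2.75 and 4.22. No WT H3K27ac peak lay within 89017 bp of the first or 92934 bp of the second. H3K4me3 covered the whole 2658 bp window of the region over the start in all 4 libraries, and 2093 and 2505 bp around the inner region in the libraries labelled Tg, against 2505 and 2505 bp in those labelled WT. The start of Meis1 therefore had H3K4me3 in every library and called H3K27ac peaks in Tg libraries alone. Its H3K27ac region was among the weak ones, with a strength of 2.25 and −log10 q of 2.44 and 8.86 in the Tg libraries. The inner region had a strength of 29.0.

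Mecom, which encodes the zinc finger regulator of stem cells known as EVI1, had a region inside the gene and one 488 bp from its start. These regions (chr3:30506964-30507416 and chr3:30507866-30509271) lay 50008 and 50910 bp from a WT peak. In the wider of them, 1406 bp, the H3K27ac peaks covered 317 and 1321 bp, and the fold enrichments were 5.39 and 9.33. H3K4me3 covered 2920 and 3406 bp around it in the libraries labelled Tg, against 3215 and 3219 bp in those labelled WT. H3K4me1 was absent from Tg replicate 1 and covered 1490 bp in Tg replicate 2, against 1164 and 771 bp in WT.

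**Figure D5:**
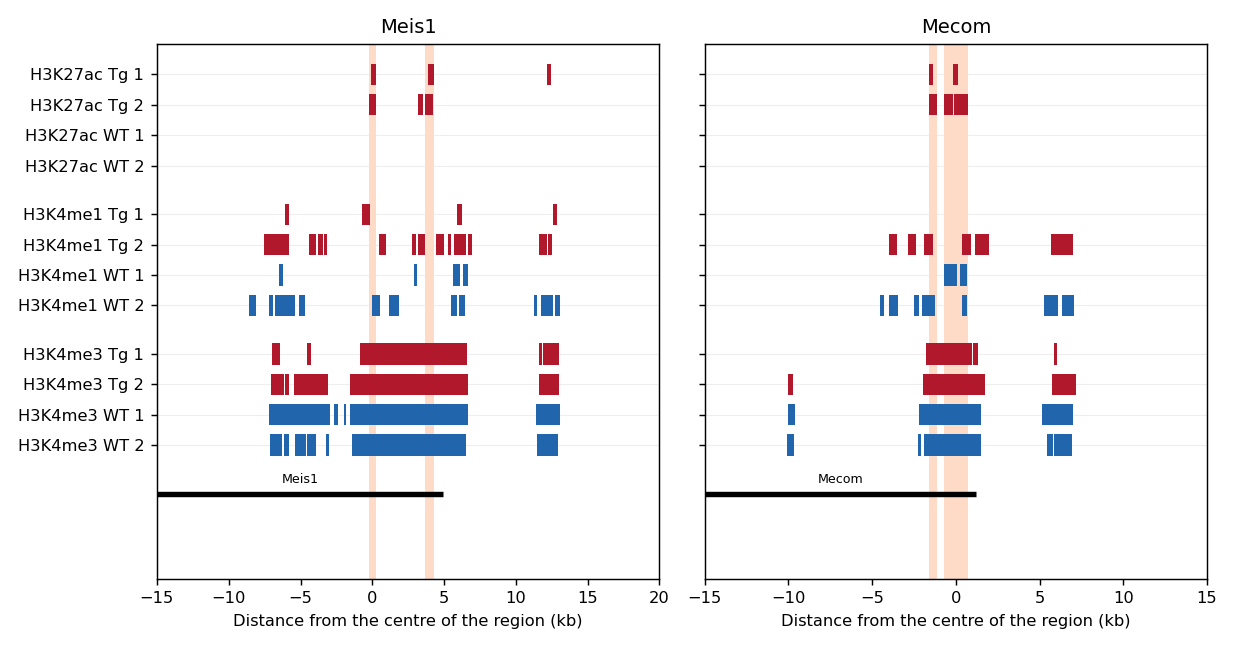
Peaks of the 12 libraries around the stronger Tg-only region of Meis1 (left) and Mecom (right), by distance from its centre in kb, with Tg-only regions shaded and Tg libraries above WT libraries. No WT H3K27ac peak lies in either window, whereas H3K4me3 peaks lie over the shaded regions in all 4 libraries.

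The other stem cell and leukaemia genes had regions in or near marked chromatin. The Runx1 region (chr16:92710252-92711260, 1009 bp) lay 137 bp from a WT peak, with H3K4me1 over 2447 and 2699 bp in Tg, against 2294 and 2784 bp in WT, and no H3K4me3. Etv6, a repressor of the ETS family, had a region 185 bp from a WT peak. In the gene or within 10 kb, Runx1 also had 2 WT-only regions and Etv6 had 3, against 1 Tg-only region each. The region in Bcor, which encodes a Polycomb-associated corepressor (chrX:12122777-12123450), lay 11581 bp from one, with fold enrichments of 9.21 and 5.67. That of Cebpa, a transcription factor of granulocyte commitment, lay 2749 bp from the gene and 1204 bp from a WT peak. Tal1, an early blood regulator, had a region 3583 bp from the gene.

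Genes of myeloid progenitors and primary granules had a Tg-only region in 5 of 18 cases (Mpo, Elane, Prtn3, Cebpa and Lpo) and a WT-only region in 4 cases. The shares were 27.8% and 22.2%, against 3.44% and 7.31% of all genes. The nearest WT peak lay 146 to 1204 bp from these Tg-only regions. The region in Mpo, the myeloperoxidase gene (chr11:87800521-87801974, 1454 bp), lay 443 bp from a WT peak and also lies 4453 bp from Lpo. A region of 380 bp over the start of Prtn3, a neutrophil protease gene (chr10:79879363-79879742), lay 409 bp from one and 6569 bp from Elane. H3K4me3 covered 1991 and 2180 bp around the Prtn3 region in the libraries labelled Tg, against 2380 and 2048 bp in those labelled WT.

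Mature granulocyte genes had a Tg-only region at 2 of 19 (Cxcr2, a chemokine receptor, and Fcgr3), or 10.5% against 3.44% of all genes. A WT-only region lay at 9, among them Ltf, Camp, Mmp8 and S100a8, or 47.4% against 7.31% of all genes. Fcgr3 met both classes. The summed H3K27ac of the granulocyte markers, lower in Tg libraries as given above, is not a separate observation. Those markers include Ltf, Camp, Mmp8 and S100a8, and both results come from the same H3K27ac lists. The part of the marker difference in these counts was not tested. The monocyte and macrophage list had 2 of 15 in each class. F13a1, which encodes the catalytic subunit of coagulation factor XIII in monocytes and platelets, had regions of 371 and 449 bp, the wider at its start with fold enrichments of 5.61 and 7.18. The nearest WT peak was 6582 bp away, and H3K4me1 covered 1536 and 2089 bp in Tg, against 1208 and 2288 bp in WT. Mertk, an efferocytosis receptor, had a region 9007 bp from the gene.

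Of the erythroid genes, 3 of 23 had a Tg-only region (among them Tal1 and Rhag, which encodes a red cell membrane protein) and 2 a WT-only region. The shares of all genes, for this list and the next 2, were 3.44% and 7.31%. The region inside Rhag (chr17:40821312-40821772) lay 30546 bp from a WT H3K27ac peak, and H3K4me1 covered 556 and 937 bp around it in Tg, against 419 and 1057 bp in WT, with overlap between the genotypes. Of the megakaryocyte genes, 1 of 16 had a Tg-only region (Itga2b, the integrin alpha IIb gene) and 7 had a WT-only region, and of the mast cell genes 1 of 12 (Mitf, a transcription factor of mast cells) had a Tg-only region and 0 a WT-only region.

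Of the lymphoid lists, 2 of 16 B-lymphoid genes met each class, as did 1 of 16 T-lymphoid genes and 0 of 9 NK cell genes, where 3.44% of all genes met a Tg-only and 7.31% a WT-only region. The B-lymphoid genes with Tg-only regions were Vpreb1 and Igll1, neighbours that encode the surrogate light chain of the pre-B cell receptor. The region over the start of Igll1 (chr16:16863963-16864643) had fold enrichments of 8.32 and 6.00 and lay 90 bp from a WT peak. H3K4me1 covered 1726 and 2335 bp there in Tg, against 1839 and 2407 bp in WT, and H3K4me3 772 and 0 bp in the libraries labelled Tg, against 132 and 85 bp in those labelled WT. The T-lymphoid gene was Ptcra, the pre-T cell receptor alpha gene, with a region 4038 bp away and no H3K4me3.

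The signalling lists are set against the same shares of all genes. JAK-STAT genes had 2 of 24 (Stat5b, a transcription factor of cytokine signalling, and Bcl2l1, a survival gene) against 6 with a WT-only region. NF-kB and TNF genes had 0 of 19 against 6, p53 and cell cycle inhibitor genes 1 of 20 (Sesn2, a stress-induced gene) against 1, and interferon response genes 0 of 19 against 2. Ligands and receptors of progenitors had 2 of 19 (Efna1 and Il1r1, an interleukin-1 receptor gene) against 4, and stroma and endothelium genes had 0 of 13 against 1.

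The 86 Tg-only regions over 50 kb from any WT H3K27ac peak included starts that carried H3K4me3 in every library. H3K4me3 was present in all 4 libraries at 35 of them and H3K4me1 in both WT libraries at 43. Of the 35, 13 lay within 1 kb of a gene end or start. Examples beside Meis1 and Mecom, chosen after their values were seen, were the region at the start of Cited4, a transcriptional coactivator gene (chr4:120666614-120668060, 1447 bp, 76162 bp from a WT peak), and those at the starts of Smug1, a uracil DNA glycosylase gene, and Npl, a sialic acid lyase gene. A region inside Tet1, a methylcytosine dioxygenase gene (chr10:62865051-62865593), also had H3K4me3 in all 4 libraries and lay 54411 bp from a WT peak. At Cited4 H3K4me3 covered 1998 and 1907 bp in the libraries labelled Tg, against 2067 and 1758 bp in those labelled WT, so the lengths overlapped.

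Of the 41 promoters overlapped by a Tg-only region, 36 had H3K4me3 in all 4 libraries and 1 had it in none. Their median GC content was 55.7%, against 56.3% over all 21263 promoter windows. Motif matches were counted on both strands, and each is only a match of letters. GGAAGT (ETS) was in 19.5% of the 41 windows and 24.8% of all windows, TGTGGT (RUNX) in 9.76% and 14.97%, and CAGCTG (E-box) in 12.2% and 15.6%. The GATA factor motif, searched as AGATAA, was in 7.32% and 9.65%. TTGCNNAA (C/EBP) was in 14.6% and 10.2%, TGANTCA (AP-1) in 4.88% and 6.99%, and TGATTNAT (HOX-PBX) in 0% and 2.75%. With 41 windows these shares rest on 0 to 8 promoters each. Men1, the menin gene, was also among the 41 and is named after its values were seen. Its region (chr19:6334331-6334892) lay 34 bp from a WT peak.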

How the data were processed

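Per the labels' protocols, chromatin was prepared with a Diagenode True MicroChIP kit and libraries were sequenced single-end. Per the submitters' processing notes, Bowtie2, MACS2, SAMtools, deepTools, Trim Galore and FastQC served for build mm10; versions, settings and control libraries are not given in the sources used here. The authors deposited 1 narrowPeak list per library, holding for each peak a score, a ratio (fold enrichment) and the −log10 of both the p-value and the q-value. Depth is unknown.

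Peaks of the 4 H3K27ac lists that overlapped by at least 1 bp were merged, and 1 bp of a peak made a library present. A methylation mark was present with a peak within 1 kb. Genes and promoters came from RefSeq tables of GRCm38.p6, the assembly named mm10 (21887 protein-coding genes of unique symbol on the main chromosomes, 17492 of them with a promoter window); exons and introns were not used here. Coordinates are 1-based.

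Covered lengths were compared in limma 3.58.1 (R 4.3.3) on log2(bp + 500), quantile normalized, with Benjamini-Hochberg adjustment over all regions tested; the fit was tested on simulated data. Library shares were set against each other in exact two-sided permutation tests. P-values measure only the spread between these libraries. The labels do not say that equal replicate numbers share a mouse. Named regions are the 12 strongest near a gene end or start, the 8 strongest elsewhere, the 5 longest runs, the 5 widest and list genes within 10 kb. The members, lists and rules were chosen with earlier results of these data known. Alternatives are given in the closing section. Results for some genes are not reported here.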

Additional observations from a re-analysis of the deposited data

How the results depend on the processing

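Alternatives were run for the number, width, position, clustering and methylation shares of the Tg-only regions (reported values 939, 493 bp, 12.6%, 34.1%, 77.6% with H3K4me1 in both WT libraries and 32.9% with H3K4me3 in all 4 libraries). With H3K27ac peaks of −log10 q of at least 5 the median width was 614.5 bp, 26.4% had another region within 100 kb and 37.0% had H3K4me3, while 702 regions passed. Merging across gaps of up to 500 bp gave 755 regions of 620 bp, with 25.3% near another, 74.2% with H3K4me1 and 28.6% with H3K4me3. Requiring no WT peak within 1 kb gave 679 regions, with 74.1% and 28.6%. Requiring peaks over 0.25 of the region gave 923 regions of 488 bp, and leaving out chromosomes X and Y gave 915 of 492 bp. In both settings every share stayed within the 95% Wilson interval of the reported one. A window of 5 kb placed 30.2% near a gene end or start, and distances of 50 and 500 kb gave 26.1% and 58.9% near another. With methylation peaks over the region itself the shares were 68.7% for H3K4me1 and 25.6% for H3K4me3, and with methylation peaks of −log10 q of at least 5 they were 58.8% and 27.7%. The cause of these shifts was not tested. Leaving out the low-fold regions and the chromosome 2 block, chosen after seeing the data, gave 916 regions. Of these, 33.6% had another within 100 kb, 79.6% had H3K4me1 and 32.4% had H3K4me3. Each share lay within the 95% Wilson interval of the reported one.

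Each library decides the number. Leaving out 1 library gave from 1302 regions without WT replicate 2 to 2330 without WT replicate 1, 3198 without Tg replicate 2 and 5179 without Tg replicate 1, since 1 condition fewer is then required. Over these 4 settings the median width ran from 287 to 532.5 bp, the share near a gene end or start from 9.47% to 13.05%, that with another within 100 kb from 39.6% to 67.7%, that with H3K4me1 in both WT libraries from 67.3% to 83.3%, and that with H3K4me3 in all 4 from 26.5% to 37.2%.

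For the Tg minus WT difference in the share per library, leaving out 1 library gave −1.60 to 7.67 percentage points for H3K4me1 and −12.5 to 0.479 for H3K4me3, with a reversed sign without WT replicate 1 in each. Reading the H3K4me3 libraries by their peak names, chosen after seeing the data, gave 6.02. With the replicate number as a block the differences stayed 3.04 for H3K4me1 (exact sign permutation, p = 0.500, the smallest 2 pairs allow) and −6.02 for H3K4me3 (p = 1), and limma with the replicate block called 0 regions for either mark. Deviations of same-numbered libraries correlated at 0.244 for H3K4me1 and −0.0436 for H3K4me3, with too few pairs to show pairing, although the H3K4me3 libraries differ in chromosome Y peaks by replicate number. Without the filter on low values limma called 37 regions for H3K4me3 (21 higher and 16 lower), of which 1 was Tg-only. It lay in Zbtb16, with 237 and 176 bp in the libraries labelled Tg, against 0 and 0 bp in those labelled WT, and is named after its values were seen. Every other limma alternative called 0 for either mark. Peak lists without counts limit these results to called or not called.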
